A study of Sus scrofa with 22 samples.

Results

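RNA from 49 splicing factor genes was followed through pig fetuses and embryos made by somatic cell nuclear transfer (cloning) or by fertilization. The genes are those with a symbol that starts with SRSF and a digit, HNRNP, SNRP, SF3A, SF3B, U2AF or PRPF, together with RNPC3; 1 gene of the HNRNP family is not analysed here. The annotation holds 68 such symbols, of which 49 had at least 1 RefSeq transcript record in the deposited tables, and these are 49 of the 14389 genes that could be named. They comprise 11 HNRNP, 11 SRSF, 10 SNRP, 8 PRPF and 7 SF3 genes, U2AF1L4 and RNPC3, and 48 of them lie on numbered chromosomes, none on X or Y. The counts of 113 records were summed per gene. For 22 genes every annotated transcript had a record, whereas the other 27 rest on part of their transcripts, such as 2 of 37 for HNRNPC and 1 of 24 for SNRPN. The other 19 symbols, among them PRPF8, SF3B3, SNRPB, U2AF1, U2AF2 and HNRNPU, could not be matched to a record and have no value here.

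Splicing removes introns from pre-mRNA on the spliceosome, a machine built from small nuclear ribonucleoproteins (snRNPs). The SNRP genes encode the Sm proteins that ring the snRNAs and proteins of the U1 and U2 particles, SF3A and SF3B proteins bind with U2 at the branch site, U2AF proteins recognise the end of the intron, and PRPF proteins belong mostly to the particles of U4, U5 and U6 and to the complexes that activate them. SR proteins (SRSF genes) and hnRNPs (HNRNP genes) bind the transcript itself and shift the choice of splice sites, often in opposite directions, and RNPC3 is a protein of the minor spliceosome, which removes a rare class of introns.

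Fetus libraries were made from total RNA of male body tissue and cover cloned fetuses titled abnormal at day 35 (2 libraries), cloned fetuses titled normal at day 35 (3), naturally fertilized (NF) fetuses at day 35 (2), and abnormal (2), normal (3) and NF (2) fetuses at day 30. One day 30 NF library is labelled female. Embryo libraries were made from cDNA of day 6 blastocysts, with 2 libraries each of male WT clones with Kdm4A (a demethylase of histone H3 lysine 9), male XIST-KO clones, male WT clones and IVF embryos of both sexes pooled. The labels do not say what made a fetus abnormal, how Kdm4A was supplied, or whether the libraries of a group came from different animals or cultures. All p-values are therefore set against the spread between these libraries, which may be technical. XIST had no record matched to its symbol, so the knockout label was not checked.

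Fetus libraries held 588882 to 11535824 expected counts in all and embryo libraries 6448823 to 20352041. Day 35 abnormal replicate 2 was the shallowest. Its gene levels ranked most like those of the NF libraries of both days (Spearman 0.889 to 0.908). With the other clone libraries the correlation was 0.783 to 0.829, and it was 0.789 with its own replicate. What sets this library apart was not tested. EIF1AY, a Y-linked gene, was at 0 CPM (counts scaled per M reads of the library, the unit of levels below unless TPM is given) in both day 35 abnormal libraries, against 20.5 to 31.1 CPM in the day 35 normal libraries. It was also at 0 CPM in day 30 NF replicate 1, labelled male, and at 33.5 CPM in replicate 2, labelled female. The sex labels and this gene thus disagree in these libraries, and in the day 35 abnormal group this difference and the titled condition cannot be told apart. Tissue markers also moved with the groups. The summed level of 8 neural marker genes was 265 to 741 CPM in abnormal, 2000 to 4714 CPM in normal and 454 to 862 CPM in NF libraries. The 7 skeletal muscle markers summed to 8.82 to 129 CPM in abnormal, 230 to 1055 CPM in normal and 310 to 415 CPM in NF libraries. For 7 trophectoderm markers the sums were 2629 and 3413 CPM in the day 30 abnormal libraries and 6704 and 251 CPM in the day 35 abnormal libraries, against 311 to 746 CPM in normal libraries. Of 7 fetal liver markers 4 were higher and none lower in abnormal than in normal clones at day 30 (median log2 fold change 5.02), and 1 was higher and 2 lower at day 35. Single neural markers did not all follow their sum, as 1 of the 8 was higher and 5 were lower in abnormal clones at day 30. The read-weighted mean transcript length was 1263 to 1425 bases in abnormal, 1315 to 1502 bases in normal and 1589 to 1644 bases in NF libraries. The part of these differences in the results that follow was not tested. In bulk tissue, fewer cells of a type and less RNA per cell cannot be told apart.

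All 49 genes were detected in fetuses, at levels that spanned more than 2 orders of magnitude. On the TPM scale, which corrects for transcript length, HNRNPA1 was the highest, with a mean over the 14 fetus libraries of 1925 TPM (range 1243 to 3338). It encodes an abundant hnRNP that binds silencer elements in exons. SNRPD2, a protein of the Sm ring, followed at 1069 TPM (607 to 1369), and HNRNPH1, which binds runs of G, at 563 TPM (361 to 778). Within the other classes, the highest levels were 462 TPM for SNRPG of the Sm ring, 398 and 284 TPM for SRSF2 and SRSF9, 203 and 198 TPM for SF3B2 and SF3B5, and 180 and 79.9 TPM for PRPF19, the ubiquitin ligase of the activating complex, and PRPF31. U2AF1L4, a relative of the small U2AF subunit, averaged 27.4 TPM, and RNPC3 was the lowest at 5.25 TPM. HNRNPM, at 487 TPM, followed HNRNPH1 in this order with a range of 199 to 728 TPM, so the spread over libraries does not separate these neighbours, and the same holds for SNRPG (331 to 882 TPM) next to them.

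Fetus libraries varied little for most members. Of the 45 genes above 0 in all 14 libraries, 36 differed less than 3-fold between the lowest and the highest library on the CPM scale, with a median of 2.31-fold and extremes of 1.41-fold for PRPF4 and 6.81-fold for HNRNPAB. In the 8 embryo libraries the median ratio was 9.52-fold over 42 genes above 0 throughout, from 1.92-fold for SNRPD2 to 143-fold for PRPF31. The order of levels also differed between the stages, which were made from different input and were not tested against each other. Embryos had SNRPD3 highest at a mean of 651 TPM, then SNRPD2 at 545 TPM and HNRNPF at 495 TPM, while HNRNPA1 averaged 90.4 TPM. SRSF3, PRPF39, PRPF19, HNRNPA0 and HNRNPA2B1 averaged 1.08 to 2.38 TPM in embryos, HNRNPUL2 averaged 0.0075 TPM, and RNPC3 and SNRPA were listed at 0 TPM in all 8 embryo libraries.

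**Figure D1:**
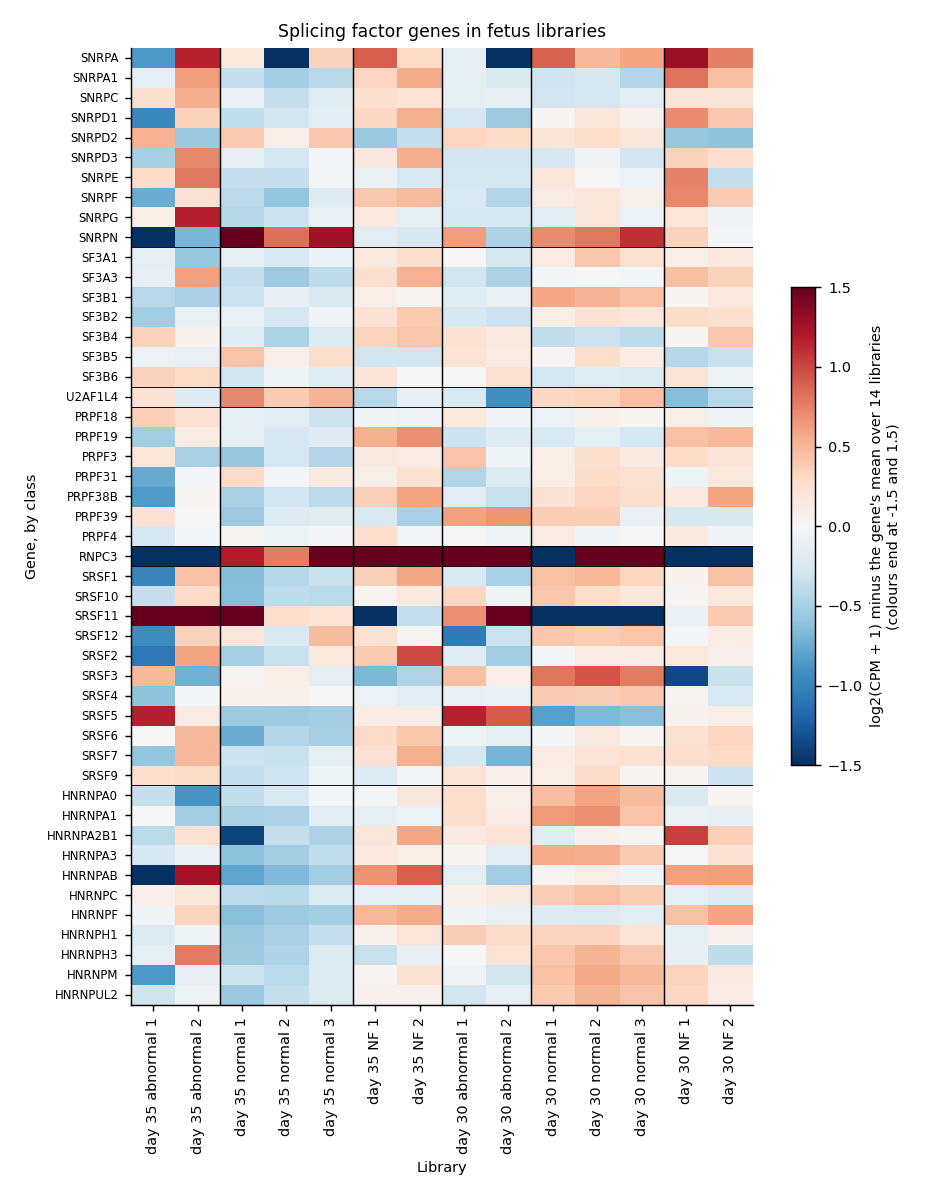
Level of 48 of the 49 genes (rows, by class) in each of the 14 fetus libraries (columns, by group), as log2(CPM + 1) minus the mean of the gene over the 14 libraries, with colours ending at -1.5 and 1.5. All 11 HNRNP rows are lower in the 3 day 35 normal libraries than in the 3 day 30 normal libraries, though not all are above their mean in the latter. The 2 day 35 abnormal libraries differ from each other in many rows.

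At day 30, SRSF5 was the clearest difference between abnormal and normal clones. Of the 49 genes tested with edgeR's quasi-likelihood test and Benjamini-Hochberg adjustment over 9911 genes, with calls at an adjusted p under 0.05, 3 were higher and 4 lower in abnormal clones (14.3%), close to the 15.4% of all genes that passed (8.93% higher and 6.46% lower). SRSF5 (chromosome 7, 93393379 to 93398510, Sscrofa11.1), an SR protein that binds enhancer elements in exons, had 360.4 and 305 CPM in the abnormal libraries, against 91.4, 102 and 104 CPM in the normal libraries. Both abnormal libraries thus lay far above all 3 normal ones. In edgeR's quasi-likelihood test the difference came to 1.75 ± 0.23 (log2 fold change ± SE; adjusted p = 0.00116), and the call held in all 22 alternatives of processing and left-out libraries.

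The other 2 higher genes were SRSF11 and SF3B4. SRSF11, an SR-related protein, had 11.8 and 23.9 CPM in the abnormal libraries and no count in any of the 3 normal libraries, so it was at least 96.1-fold higher against a floor of 3 counts over the normal group (adjusted p = 0.0101, edgeR's quasi-likelihood test). This floor covers counting error only, not the way reads are divided among similar records. SRSF11 is described further with the genes that were present or absent by group. SF3B4, the SF3B protein that touches the transcript next to the branch site, had 218 and 207 CPM in the abnormal libraries, against 145, 150.0 and 143 CPM in the normal libraries. The groups did not overlap (0.54 ± 0.16, adjusted p = 0.0444, edgeR's quasi-likelihood test).

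The 4 lower genes came from the SF3B, U2AF and HNRNP classes. SF3B1, the largest SF3B protein and part of the branch site pocket, had 693 and 737 CPM in the abnormal libraries, against 1175, 1125 and 1069 CPM in the normal libraries (log2 fold change -0.65 ± 0.13 SE). HNRNPA3, an hnRNP of the A/B type, had 1143 and 1007 CPM in abnormal, against 1649, 1644 and 1482 CPM in normal libraries (-0.57 ± 0.15). HNRNPUL2 had 248 and 275 CPM in abnormal, against 394, 430 and 405 CPM in normal libraries (-0.65 ± 0.15). In each of these genes the 2 abnormal libraries lay below all 3 normal ones. U2AF1L4 was low throughout, with 15.7 and 9.41 CPM in abnormal, against 23.4, 23.8 and 25.8 CPM in normal libraries (-0.95 ± 0.27). Adjusted p-values of the 4 genes were 0.00989 to 0.0375 in edgeR's quasi-likelihood test.

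Most members leaned downwards at day 30, with the 7 that passed counted in. Both abnormal libraries lay below all normal ones in 28 of the 49 genes and above them in 12, where the same held for 33.3% and 30.9% of all genes tested. The median log2 fold change was -0.29 over the 49 genes (also with SRSF11 at its bound) and -0.02 over all genes. By class it was -0.42 in the SRSF, -0.33 in the HNRNP, -0.35 in the SF3, -0.26 in the SNRP and -0.00 in the PRPF class. When the total count of all records replaced TMM scaling, the median of all genes moved to -0.14 and that of the members to -0.41, with 2 higher and 7 lower calls; on log2(TPM + 1) these were -0.27 and -0.58, with 2 higher and 14 lower calls. The count of 7 calls was 1 without day 30 abnormal replicate 2, 3 without day 30 normal replicate 2 or 3, 4 without day 30 abnormal replicate 1 or day 30 normal replicate 1, and 21 without either day 35 abnormal library, which share the estimate of spread. SRSF11 lost its call without day 30 abnormal replicate 2, SF3B1 without either day 30 abnormal library, and the remaining 4 in 5 to 15 of 22 alternatives.

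Few splicing genes outside the 49 passed at day 30. Among 39 tested genes of a list of further snRNP and core spliceosome proteins, 1 was lower and none higher (2.56%, against 15.4% of all genes). An unadjusted p under 0.05 was found for 11, a count for which the share of all genes is not given here. The lower gene was EFTUD2, the GTPase of the U5 particle, with 256 ± 1.01 CPM in abnormal and 360.0 ± 25 CPM in normal clones (SD, n = 2 and 3). Among 35 tested splicing regulators and kinases 3 were lower and none higher (8.57%). CLK1, a kinase that phosphorylates SR proteins, had 78.2 ± 3.71 CPM in abnormal and 207 ± 14.6 CPM in normal clones (-1.41 ± 0.19, adjusted p = 0.00138, edgeR's quasi-likelihood test). Its relative CLK4 had 44.7 ± 5.13 and 89.2 ± 6.21 CPM in abnormal and normal clones, and RBM25, a regulator of splice site choice, 188 ± 14.3 and 286 ± 14.2 CPM.

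At day 35 the calls among splicing factors went mostly upwards in abnormal clones with TMM scaling, though not with total-count scaling or on log2(TPM + 1), as given below. Of the 49 genes 12 were higher and 1 lower than in normal clones (26.5% in all, 24.5% higher and 2.04% lower), where 23.2% of all genes passed, 10.9% higher and 12.3% lower, in edgeR's quasi-likelihood test. Among the higher genes were SRSF5, SRSF6 and SRSF9, HNRNPF, HNRNPH3 and HNRNPC, SF3A3, SF3B4 and SF3B6, and SNRPG and SNRPC. SRSF5 had the largest log2 fold change of the 12 higher genes, with 365 and 175 CPM in the abnormal libraries, against 110.3, 110.4 and 112 CPM in the normal libraries. The 3 normal libraries were almost equal and both abnormal ones lay above them, replicate 1 by far (log2 fold change 1.32 ± 0.23 SE, adjusted p = 0.00301, edgeR's quasi-likelihood test). Abnormal replicate 2 was level with the day 35 NF libraries, which had 174 and 175 CPM.

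The spread between the 2 abnormal libraries differed from gene to gene. SRSF6, another SR protein, had 208 and 289 CPM in the abnormal libraries, against 123, 151 and 146 CPM in the normal libraries (0.81 ± 0.16). HNRNPF, which binds runs of G, had 569 and 736 CPM in abnormal, against 379, 399 and 410.3 CPM in normal libraries (0.71 ± 0.14). Both genes separated the groups with a modest distance between replicates. SNRPG of the Sm ring had 169 and 359 CPM in abnormal, against 117, 127 and 147 CPM in normal libraries (0.98 ± 0.26). HNRNPH3, a relative of HNRNPF, had 199 and 378 CPM in abnormal, against 151, 159 and 190.0 CPM in normal libraries (0.76 ± 0.23). SF3A3, which helps U2 join the branch site, had 185 and 310.2 CPM in abnormal, against 159, 138 and 155 CPM in normal libraries (0.69 ± 0.20). In these 3 genes the shallow replicate 2 was much the higher of the abnormal libraries, and replicate 1 lay just above the normal range. The day 35 NF libraries had 253 and 275 CPM for SRSF6 and 827 and 862 CPM for HNRNPF. They had 176 and 143 CPM for SNRPG, 174 and 202 CPM for HNRNPH3 and 239 and 291 CPM for SF3A3.

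Smaller differences were found in other classes. SNRPC, the U1 protein at the start of the intron, had 122 and 151 CPM in abnormal, against 96.7, 80.3 and 90.9 CPM in normal libraries (0.59 ± 0.15). SRSF9 had 158 and 162 CPM in abnormal, against 103, 108 and 127 CPM in normal libraries (0.51 ± 0.16). SF3B4, which passed at day 30 too, had 238 and 194 CPM in abnormal, against 165, 134 and 162 CPM in normal libraries (0.50 ± 0.16). Its calls were lost in 15 of 22 alternatives at day 30 and 17 of 22 at day 35. The day 35 NF libraries had 236 and 249.5 CPM for this gene. HNRNPC and SF3B6 had log2 fold changes of 0.46 and 0.50. None of these genes overlapped between the groups, and the adjusted p-values of the higher genes besides SRSF5 were 0.00576 to 0.0464 in edgeR's quasi-likelihood test.

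SNRPN was the single member that was lower at day 35. It encodes a form of the Sm B protein from a locus that is imprinted in human and mouse, where the paternal copy is expressed. The abnormal libraries had 0 and 43.2 CPM, the second in the shallow library where 3 counts are 8.09 CPM, against 295, 125 and 169 CPM in the normal libraries. The difference was -4.39 ± 1.16 (adjusted p = 0.0200, edgeR's quasi-likelihood test), and the call was lost without day 35 normal replicate 1, with a replicate block and with only the compared groups. The value was -12.88 without day 35 abnormal replicate 2 and -2.2 without replicate 1. At day 30 the gene had 109 and 50.5 CPM in abnormal, against 115, 122 and 150.0 CPM in normal libraries and did not pass. NF libraries had 62.6 and 58.9 CPM at day 35 and 88.8 and 68.45 CPM at day 30, below the normal clones of the same day. All SNRPN values rest on 1 of 24 annotated transcripts.

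Both day 35 abnormal libraries lay above the normal range in 20 of the 49 genes, where 17.1% of all genes did, and both below it in 6, against 25.9% of all genes. The 2 libraries lay on opposite sides of the normal range in 13 genes, with replicate 1 below and replicate 2 above in 10 of these. HNRNPAB, for one, had 74.4 and 507 CPM in abnormal, against 123, 134 and 149 CPM in normal libraries; this gene was named after its values were seen. The median log2 fold change was 0.31 for the members (also with RNPC3 at its bound) and 0.00 for all genes. With total-count scaling these were 0.10 and -0.21, with 3 higher and 6 lower calls, and on log2(TPM + 1) -0.03 and -0.32, with 3 higher and 8 lower calls. The SF3 median was -0.17 with TMM although 3 of its genes were higher. Medians of other classes turned: the SRSF median was 0.33 with TMM and -0.03 on log2(TPM + 1), and the PRPF median 0.19 with TMM, -0.02 with total-count scaling and -0.10 on log2(TPM + 1). The higher calls outnumbered the lower ones 11 to 7 without day 35 abnormal replicate 2 and 15 to 3 without replicate 1; 4 calls were left without day 35 normal replicate 1 and 5 without replicate 2. SRSF5 and SRSF6 lost their calls in 1 of 22 alternatives and the other named genes in 2 to 17.

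**Figure D2:**
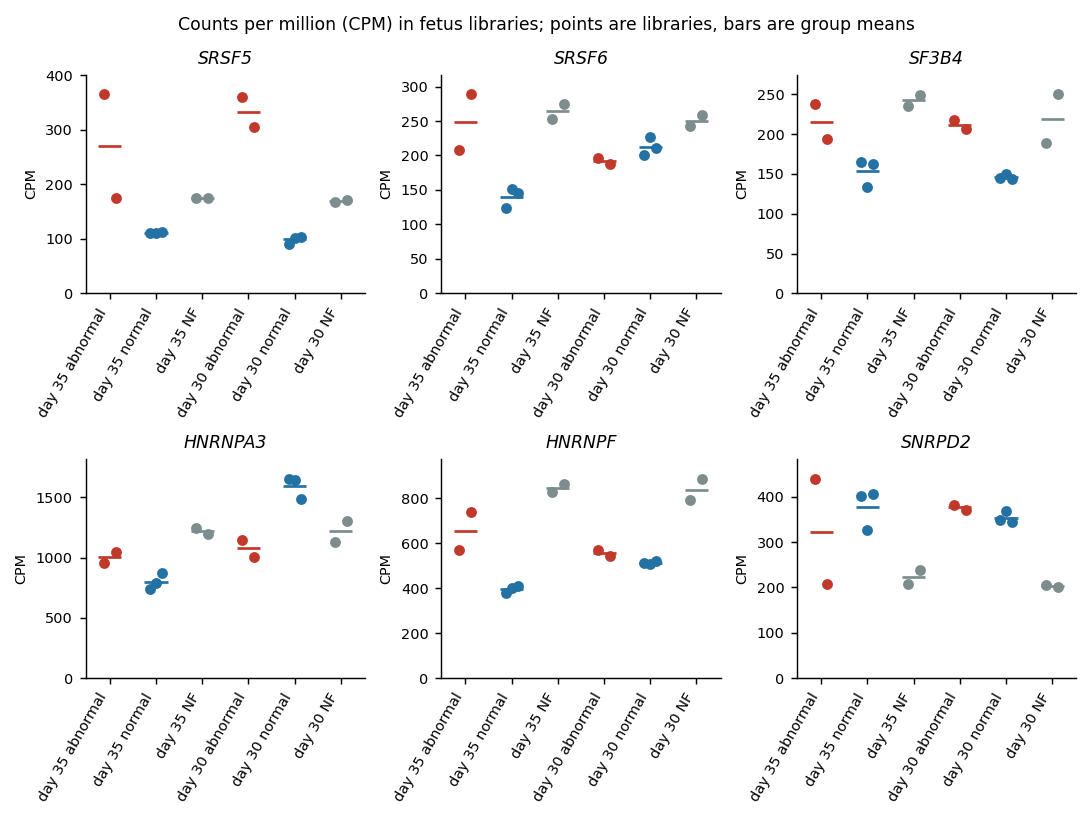
CPM of SRSF5, SRSF6, SF3B4, HNRNPA3, HNRNPF and SNRPD2 in the 14 fetus libraries, where each point is a library and each bar a group mean. SRSF5 lies above the normal libraries in both abnormal groups, at 305 to 360.4 CPM on day 30 and 175 to 365 CPM on day 35, while HNRNPF and SNRPD2 separate normal from NF libraries in opposite directions.

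Of the 39 tested snRNP and core spliceosome genes 3 were higher and 2 lower at day 35 (12.8%, against 23.2% of all genes). The higher ones were LSM5 and LSM3, of the Sm-like ring on the U6 snRNA, and CDC40, a factor of the later splicing step; CDC40 had 70.6 ± 4.40 CPM in abnormal and 38.1 ± 3.92 CPM in normal clones. PLRG1, a partner of PRPF19, had no count in the abnormal libraries and 15.1 ± 4.31 CPM in normal clones, at least 15.0-fold lower, and LSM6 had 52.3 ± 1.47 CPM against 83.0 ± 3.62 CPM. Of 35 regulators 6 were higher and 9 lower (42.9%). PTBP3 (191 ± 15.6 against 100.3 ± 13.4 CPM), QKI and KHDRBS1, all RNA-binding regulators found in many tissues, were higher in abnormal clones. SRPK3, an SR protein kinase of muscle, had 11.9 ± 13.6 CPM in abnormal and 84.2 ± 15.0 CPM in normal clones, and the neuronal regulators CELF3 and ELAVL3 had log2 fold changes of -2.95 and -2.58. The muscle and neural marker sums given above were lower in the same abnormal libraries.

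**Figure D3:**
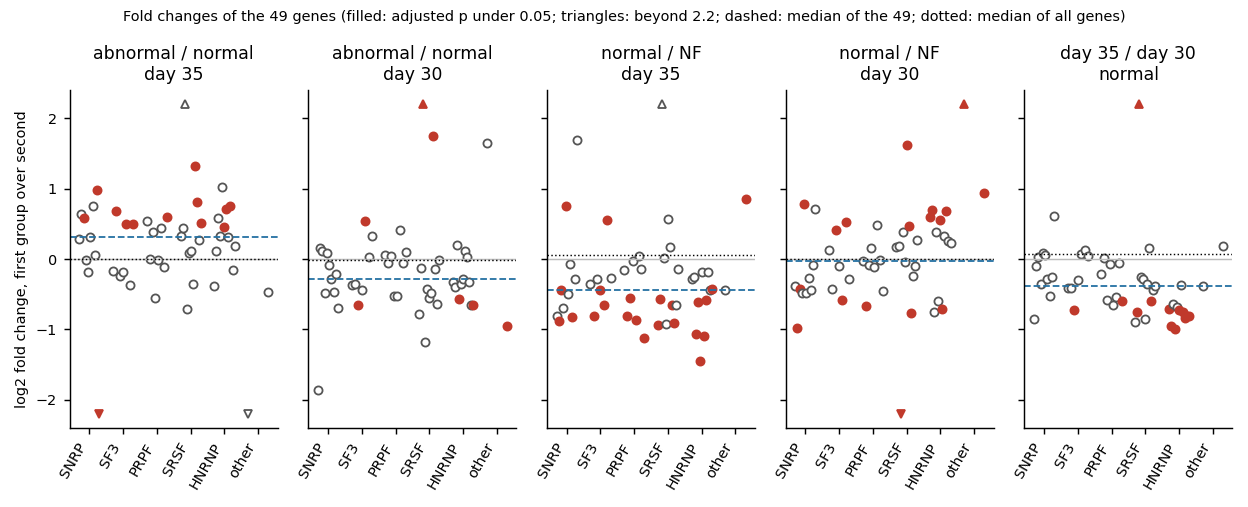
Log2 fold change of each of the 49 genes in 5 fetal comparisons, by class, with filled points at adjusted p under 0.05, triangles for values beyond 2.2 and lines for the median of the 49 genes (dashed) and of all genes (dotted). The median of the members is 0.31 for abnormal against normal at day 35 (-0.03 on log2(TPM + 1)) and -0.29 at day 30, and HNRNP genes are all below 0 for day 35 against day 30 in normal clones.

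The effect of abnormality differed between the days for 3 members, HNRNPA3, HNRNPC and SRSF6. Their day 35 log2 fold changes exceeded the day 30 ones by 0.89 ± 0.20, 0.75 ± 0.18 and 0.95 ± 0.23 (SE), with adjusted p-values of 0.0378, 0.0453 and 0.0465 in edgeR's quasi-likelihood test of the interaction. These are 6.12% of the members, against 4.05% of all genes (1.31% higher and 2.73% lower). HNRNPA3 had 955 and 1047 CPM in abnormal, against 735, 791 and 869 CPM in normal libraries at day 35, and 1143 and 1007 CPM in abnormal, against 1649, 1644 and 1482 CPM in normal libraries at day 30. SRSF6 at day 30 had 197 and 188 CPM in abnormal, against 201, 227 and 210.2 CPM in normal libraries, so that both genes lay above the normal libraries at day 35 and below them at day 30. Each passed at 1 day only: HNRNPA3 did not pass at day 35 (log2 fold change 0.33), nor SRSF6 at day 30 (-0.14). The abnormal libraries of HNRNPA3 overlapped between the days, whereas its normal libraries did not. HNRNPC had 580 and 620.4 CPM in abnormal, against 419, 414 and 479 CPM in normal libraries at day 35, and 577 and 603 CPM in abnormal, against 712, 747 and 712 CPM in normal libraries at day 30. The abnormal libraries were thus almost level across the days in this gene, and the normal libraries were not. Cell type markers also moved in this contrast, with 5 of 7 endothelial and 6 of 8 leukocyte markers lower: the leukocyte markers summed to 46.0 and 24.3 CPM in abnormal, against 103 to 159 CPM in normal libraries at day 35, and to 97 and 124 CPM in abnormal, against 29.2 to 40.5 CPM in normal libraries at day 30. The endothelial markers summed to 172 and 32.4 CPM in abnormal, against 658 to 744 CPM in normal libraries at day 35, and to 867 and 1258 CPM in abnormal, against 527 to 572 CPM in normal libraries at day 30. Their part in the result was not tested. No member was called in the interaction without any 1 of 9 of the fetus libraries, 7 without day 35 abnormal replicate 2 and 23 without replicate 1, 1 without day 30 normal replicate 1 or day 30 NF replicate 2, and 2 without day 30 NF replicate 1.

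Between day 35 and day 30 in normal clones, hnRNP genes were lower at the later day. Of the 49 members 1 was higher and 12 lower (26.5% in all, 24.5% lower), whereas 9.19% of all genes passed, 5.35% higher and 3.84% lower, in edgeR's quasi-likelihood test. Of the 11 HNRNP genes 8 were lower, and all 11 had every day 35 library below every day 30 library, which held for 23.5% of all genes. The summed level of the 11 genes was 6264, 6559 and 7516 CPM in the day 35 normal libraries, against 12115, 12629 and 11378 CPM in the day 30 normal libraries. The same sums were 7661 and 8176 CPM at day 35 and 9856 and 9134 CPM at day 30 in abnormal clones, and 9164 and 9762 CPM at day 35 and 9297 and 9441 CPM at day 30 in NF fetuses. The NF libraries thus stayed within a narrow range over both days, while the normal clones covered both the highest and the lowest sums.

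HNRNPA3 had the largest fall, to 735, 791 and 869 CPM in day 35 normal libraries, against 1649, 1644 and 1482 CPM at day 30 (log2 fold change -1.0 ± 0.13 SE, adjusted p = 0.00635, edgeR's quasi-likelihood test). HNRNPA1 had 1888, 1912 and 2349 CPM at day 35, against 4098, 4232 and 3565 CPM at day 30 (-0.95 ± 0.16). Neither gene overlapped between the days. HNRNPH3, HNRNPM, which binds GU-rich sites, and HNRNPUL2 had log2 fold changes of -0.84 ± 0.21, -0.81 ± 0.18 and -0.81 ± 0.13, and HNRNPH1, HNRNPC and HNRNPA0 also passed. Lower genes of other classes included SF3B1, at 678 ± 47.0 CPM at day 35 against 1123 ± 52.8 CPM at day 30 (SD, n = 3 each), SRSF10 and SRSF6. SRSF11 was the higher one, at 27.4, 8.49 and 8.22 CPM at day 35 against no count in any library at day 30, at least 79.1-fold. Beside these differences, 8 leukocyte markers summed to 103 to 159 CPM in the day 35 normal libraries, against 29.2 to 40.5 CPM at day 30. The 8 erythroid markers summed to 1431 to 2843 CPM at day 35, against 1305 to 2936 CPM at day 30, with 2 of them higher and 4 lower, and the 7 skeletal muscle markers to 530.0 to 1055 CPM at day 35, against 230.0 to 307 CPM at day 30, with 3 higher. Their part in the result was not tested.

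The count of 8 lower HNRNP genes was the same with RLE size factors, total-count scaling and log2(TPM + 1). Across the 49 genes the fold change fell with transcript length (Spearman -0.45, across genes that share libraries), as it did more weakly across all genes (-0.19), and the mean transcript length was 1315 to 1401 bases in the day 35 normal libraries against 1462 to 1502 bases at day 30; the part of length in the result was not tested. No member passed without day 30 normal replicate 1 or 2, 1 did without day 35 normal replicate 1, 7 without day 30 normal replicate 3 or day 35 normal replicate 2, and 28 without either day 35 abnormal library. Of the further lists, 4 core spliceosome genes were lower and none higher (10.3%, against 9.19% of all genes), among them SART3, which recycles U4 and U6 (121 ± 19.7 against 201 ± 10.2 CPM), DDX46 and DHX8, RNA helicases of the spliceosome. Among the regulators 2 were higher and 9 lower (31.4%), with log2 fold changes of -1.01 for QKI and -0.95 for TIA1; the higher ones were CELF6 and SRPK3.

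Normal clones and NF fetuses differed in many splicing factors at both days, as they did in genes at large. The normal libraries of each day also enter the comparisons above, so the values are not independent of them. At day 30, 11 of the 49 genes were higher and 7 lower in normal clones (36.7%, against 29.3% of all genes, in edgeR's quasi-likelihood test), and at day 35, 3 were higher and 20 lower (46.9%, against 42.3% of all genes; 40.8% lower, against 20.1%, and 6.12% higher, against 22.1%). At day 30 the shares of all genes were 14% higher and 15.3% lower. All normal libraries lay above all NF libraries in 7 members and below them in 33 at day 35 (37.7% and 35.1% of all genes), and in 19 and 18 members at day 30 (33.2% and 32.6% of all genes). Of the 11 HNRNP genes 4 were higher and 1 lower at day 30, and 6 were lower and none higher at day 35, a contrast between days that was not tested. The median log2 fold change of the members was -0.03 at day 30 (also with RNPC3 and SRSF11 at their bounds) and -0.44 at day 35, where that of all genes was 0.06. Beside these differences stood those in tissue markers: the 5 fibroblast matrix markers summed to 10412 to 24168 CPM in normal and 27714 to 39209 CPM in NF libraries, and the 8 erythroid markers to 1305 to 2936 CPM in normal and 58.8 to 227 CPM in NF libraries. Their part in the result was not tested.

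HNRNPF was lower in normal clones at both days. It had 379, 399 and 410.3 CPM in normal, against 827 and 862 CPM in NF libraries at day 35 (log2 fold change -1.09 ± 0.14 SE, adjusted p = 0.000271, edgeR's quasi-likelihood test), and 511, 506 and 521 CPM in normal, against 792 and 884 CPM in NF libraries at day 30 (-0.71 ± 0.14). The groups lay far apart at each day and the call held in all 22 alternatives at both. SNRPA1, a protein of the U2 particle, had 55.0, 57.1 and 50 CPM in normal, against 121 and 93.2 CPM in NF libraries at day 30 (-0.98 ± 0.20), and its call also held in all 22 alternatives. SRSF5 was lower in normal clones than in NF fetuses, at 91.4 to 104 CPM against 167 and 171 CPM on day 30 (-0.77 ± 0.23) and at 110.3 to 112 CPM against 174 and 175 CPM on day 35 (-0.65 ± 0.23), and the day 30 call was lost in 7 of 22 alternatives.

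SF3B4 and SNRPC were lower at both days as well. PRPF19 had 200 to 214 CPM in normal, against 317 and 330 CPM in NF libraries at day 30 (-0.67 ± 0.17) and passed at day 35 too. Large changes at day 35 were also those of HNRNPAB (135 ± 13.2 CPM in normal clones and 369 ± 40.2 CPM in NF fetuses), HNRNPA2B1 (134 ± 46.9 and 281 ± 54.6 CPM) and SRSF1, the founding SR protein (368 ± 41.5 and 706 ± 75.4 CPM; SD, n = 3 and 2). Their calls were lost in 11, 1 and 6 of 22 alternatives, and that of PRPF19 at day 30 in 1 of 22. All 11 HNRNP genes had a log2 fold change below 0 at day 35 under all 4 scalings used. SRSF11 at day 30, with no count in normal clones and 6.41 and 9.45 CPM in NF libraries, was at least 42.7-fold lower.

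Of the genes higher in normal clones, 11 at day 30 and 3 at day 35, SNRPD2, U2AF1L4 and SF3B5 passed at both days. SNRPD2 had 349, 368 and 345 CPM in normal, against 206 and 202 CPM in NF libraries at day 30 (0.79 ± 0.25), and 401, 326 and 405 CPM in normal, against 207 and 238 CPM in NF libraries at day 35 (0.76 ± 0.25), and its call was lost in 8 of 22 alternatives at each day. U2AF1L4 had log2 fold changes of 0.94 and 0.85 at days 30 and 35, and SF3B5, a small SF3B protein, 0.52 and 0.55. SRSF3, the smallest SR protein, had 134, 148 and 131 CPM in normal, against 29.2 and 60.2 CPM in NF libraries at day 30 (1.62 ± 0.33, adjusted p = 0.00524, edgeR's quasi-likelihood test), with a call that held in all 22 alternatives. At day 30 the hnRNP genes HNRNPA1 (0.70 ± 0.18), HNRNPH3 (0.68 ± 0.23), HNRNPA0 and HNRNPC were higher as well, with calls lost in 3 of 22 alternatives for HNRNPA1 and 16 of 22 for HNRNPH3. Calls were lost in 5 and 4 of 22 alternatives for U2AF1L4 at days 30 and 35 and in 2 of 22 for SF3B5 at day 35. With total-count scaling the day 30 split was 14 higher and 4 lower, while the median of all genes moved to 0.15. The day 30 count of 18 was 10, 7 and 9 without normal replicate 1, 2 and 3, and 9 and 3 without NF replicate 1 and 2; the day 35 count of 23 was 14 and 15 without normal replicate 1 and 3, and 11 and 6 without NF replicate 1 and 2.

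Among other splicing genes, GEMIN5, which helps load Sm proteins onto snRNAs, had 59.9 ± 7 CPM in normal and 183 ± 7.77 CPM in NF fetuses at day 35 and 86.0 ± 10 and 167 ± 14.4 CPM at day 30, and GEMIN4 was lower in normal clones at both days too. Of 39 core genes 1 was higher and 14 lower at day 35 (38.5%, against 42.3% of all genes) and none higher and 7 lower at day 30 (17.9%, against 29.3%), with SF1, the first protein at the branch site, lower at day 35 and SMN1 at day 30. SNRNP25, of the minor spliceosome, was higher at day 35. Of 35 regulators 8 were higher and 13 lower at day 35 (60%), and 10 higher and 4 lower at day 30 (40%). The neuronal regulators CELF3 (138 ± 37.2 and 0.515 ± 0.481 CPM at day 35) and ELAVL3 (127 ± 34.3 and 1.12 ± 0.350 CPM) were higher in normal clones at both days, NOVA2 at day 30 and CELF6 at day 35. MBNL1 (30.6 ± 11.9 and 165 ± 24.7 CPM at day 35) and PTBP1 were lower at both days, RBM24 at day 30 and QKI at day 35. All 8 neural markers were higher in normal clones than in NF fetuses at day 35 and 7 of 8 at day 30.

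Some members were present in one group and absent from another, and their single records were therefore examined. RNPC3 (chromosome 4, 115279557 to 115311960) has 5 records. It had 23.7, 17.4 and 29.2 CPM in day 35 normal, 34.0 and 29.4 CPM in day 35 NF and 0 CPM in both day 35 abnormal libraries. At day 30 it had 100.5 and 91.5 CPM in abnormal, 0, 51.3 and 39.7 CPM in normal and 0 CPM in both NF libraries. The zeros therefore fell in 1 normal, 2 NF and 2 abnormal libraries, and the normal replicates of day 30 disagreed with each other. Against 3 counts over the group it was at least 23.3-fold lower in day 35 abnormal than in normal clones (adjusted p = 0.0908, edgeR's quasi-likelihood test, not passed) and at least 140-fold higher in day 30 normal clones than in NF fetuses (adjusted p = 0.0134, same test), although these groups overlapped because of the normal library at 0.

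None of the 5 matched records alone accounted for these zeros. RNPC3 has 6 annotated transcripts, and reads given to a transcript without a matched record would not be seen here. In libraries with RNPC3 counts, reads fell mainly on the records of 5793 and 5796 bases, which had 170 and 0 counts in day 30 abnormal replicate 1, but 80.4 and 107 counts in replicate 2. In the 5 libraries listed at 0, all 5 records had at most 0.01 counts. Those libraries ranged from the shallowest, day 35 abnormal replicate 2, to the deepest, day 30 NF replicate 1, where 3 counts correspond to 0.409 CPM.

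SRSF11 (chromosome 6, 142621904 to 142668107) has a single annotated transcript, a record of 2787 bases. Its expected counts were not whole numbers, such as 27.47 and 56.28 in the day 30 abnormal libraries. RSEM had thus divided reads between this record and others by estimate, so a 0 need not mean absence, and folds against a 0 share this limit. SRSF11 had 93.6 and 113 CPM in day 35 abnormal, 27.4, 8.49 and 8.22 CPM in day 35 normal and 0 and 5.24 CPM in day 35 NF libraries. At day 30 it had 11.8 and 23.9 CPM in abnormal, 0, 0 and 0 CPM in normal and 6.41 and 9.45 CPM in NF libraries. The 2 day 35 abnormal libraries were the highest of all, but with 2.79 ± 0.90 against normal clones the adjusted p was 0.0516 in edgeR's quasi-likelihood test and did not pass. In embryos the gene had 8.79 and 2.79 CPM in WT+Kdm4A, 2.81 and 12.9 CPM in XIST-KO, 0 and 2.79 CPM in WT and 30.1 and 84.2 CPM in IVF libraries.

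SRSF5 was present in all 14 fetus libraries, and its 6 records were examined after the values were seen. In day 30 abnormal libraries the record of 1639 bases had 399 and 306 counts and that of 1516 bases 0.09 and 0 counts. In day 30 normal libraries the 1639-base record had 2.62, 23.3 and 4.57 counts and the 1516-base record 164, 277 and 207 counts. These 2 records thus went in opposite directions at day 30, but they were not the only ones with counts. The 1540-base record had 249 and 247 counts in abnormal, against 0, 53.5 and 28.3 counts in normal libraries. The 1636-base record had 177 and 159 counts in abnormal, against 212, 313 and 324 counts in normal libraries, where it was the largest. At day 35 the 1639-base record did not separate the groups, with 445 and 6.72 counts in abnormal, against 88.0, 260.0 and 52.8 counts in normal libraries. Its counts also differed between the day 30 NF replicates, at 268 and 23.9. RSEM divides reads among similar records by estimate, so the split is less certain than the sum. The sum has a limit too, as 6 of 11 annotated SRSF5 transcripts had a record. Reads given to other transcripts are not in it.

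**Figure D4:**
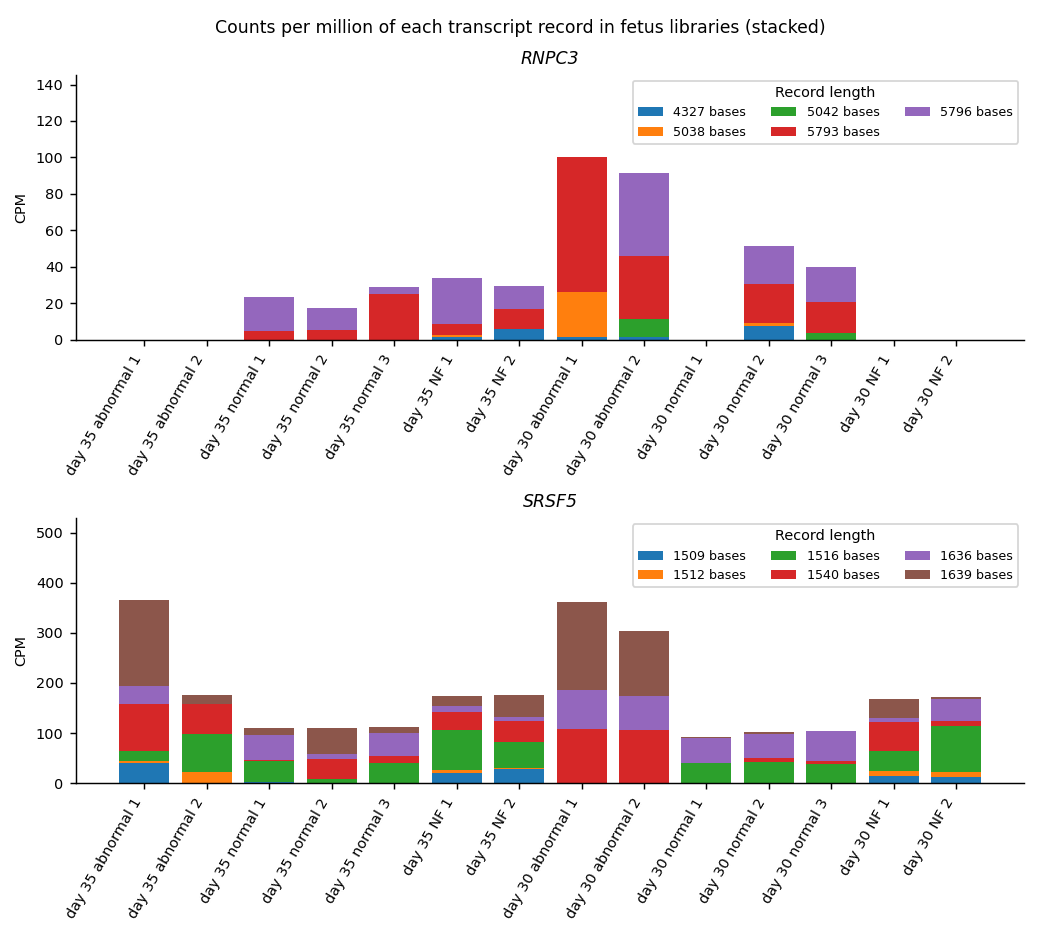
CPM of each transcript record, stacked, for RNPC3 (5 records) and SRSF5 (6 records) in the 14 fetus libraries, with records named by their length. RNPC3 is at 0 in 5 libraries of 3 groups, and in SRSF5 the 1639-base record is large in both day 30 abnormal libraries (399 and 306 counts) and nearly empty in the day 30 normal ones (2.62, 23.3 and 4.57 counts).

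In day 6 embryos 46 of the 49 genes could be tested, and few passed, while replicates varied widely (biological coefficient of variation 0.893, against 0.29 in fetuses). In WT clones with Kdm4A 2 members were higher and 3 lower than in WT clones (10.9%, against 7.43% of all genes, 2.95% higher and 4.48% lower, in edgeR's quasi-likelihood test). Both WT+Kdm4A libraries lay above both WT libraries in 21 members and below them in 12, as in 38.9% and 26.9% of all genes. HNRNPF had 1879 and 1535 CPM in WT+Kdm4A, against 373 and 365 CPM in WT libraries (log2 fold change 2.21 ± 0.52 SE). PRPF4, a protein of the U4/U6 particle, had 508 and 319 CPM in WT+Kdm4A, against 53.0 and 25.9 CPM in WT libraries (3.39 ± 0.73). Both were higher in each treated library than in each WT library.

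HNRNPA3 had 49.5 and 25.5 CPM in WT+Kdm4A, against 786 and 800.2 CPM in WT libraries (-4.40 ± 1.04). Its sum rests on 4 of 9 annotated transcripts. The record of 3126 bases went the other way, with 492 and 160 counts in WT+Kdm4A and 0 in both WT libraries. HNRNPM had 64.3 and 95.95 CPM in WT+Kdm4A, against 412 and 566 CPM in WT libraries (-2.61 ± 0.60), and PRPF31, which holds U4/U6 to the U5 particle, had 1.81 and 20.3 CPM, against 259 and 234 CPM in WT libraries (-4.48 ± 1.04). These 3 genes were several-fold below WT in both WT+Kdm4A libraries, and adjusted p-values of the 5 genes were 0.0212 to 0.0300 in edgeR's quasi-likelihood test. The count of 5 was 0 without either WT library, 1 without WT+Kdm4A replicate 1, 3 without IVF replicate 2, 11 without XIST-KO replicate 1 and 10 without XIST-KO replicate 2.

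The same genes could be read in the other embryo groups. In XIST-KO clones HNRNPF had 1307 and 1728 CPM, HNRNPM 92.9 and 162 CPM and PRPF31 36.2 and 37.2 CPM, on the same side of the WT values as with Kdm4A, while HNRNPA3 had 1084 and 66.7 CPM and straddled them. The WT libraries are shared by both comparisons. None of the members passed between XIST-KO and WT clones in edgeR's quasi-likelihood test, where 1.11% of all genes did (0.417% higher and 0.690% lower). An unadjusted p under 0.05 was found for 7 members, and DESeq2 called 6. The shares of all genes on these 2 criteria are not given here, so neither count tells the members from other genes. HNRNPF came nearest, at 2.04 ± 0.52 (adjusted p = 0.0770, edgeR's quasi-likelihood test). The count was 2 without either WT+Kdm4A library or without XIST-KO replicate 1. The 2 XIST-KO libraries also differed from each other in mean transcript length, 792 and 1212 bases, where the other embryo libraries had 756 to 951 bases.

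Between WT clones and IVF embryos a single member passed (2.17%, against 5.71% of all genes, 4.28% higher and 1.42% lower, edgeR's quasi-likelihood test). HNRNPM had 412 and 566 CPM in WT, against 55.5 and 66.7 CPM in IVF libraries, so that no library of one group came near the other (3.0 ± 0.61, adjusted p = 0.0203, same test). This call was lost without any 1 of the 4 WT and IVF libraries, and also with total-count scaling, where the median of all genes was -0.85 and 1 member was lower, and on log2(TPM + 1), where 5 were lower and none higher. The count was 6 without either WT+Kdm4A library, and 8 and 7 without XIST-KO replicate 1 and 2. PRPF39, an alternative splicing factor linked to the U1 particle, was nearly absent from some groups: its 3 records together had 20.6 and 2.60 counts in WT+Kdm4A, 0 and 0 in XIST-KO, 1.97 and 0 in WT and 68.4 and 83.6 counts in IVF libraries. Its adjusted p for WT against IVF was 0.153 and did not pass in edgeR's quasi-likelihood test.

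Of the further lists, 37 core genes and 27 regulators were tested in embryos. RALY, an hnRNP-like protein, was lower with Kdm4A (5.70 ± 1.08 against 626 ± 420.0 CPM in WT), lower in XIST-KO (14.3 ± 8.23 CPM) and higher in WT than in IVF embryos (1.1 ± 0.171 CPM), all relative to the same 2 WT libraries. With Kdm4A, 2 core genes were higher and none lower (5.41%), and 1 regulator was higher and 3 lower (14.8%), against 7.43% of all genes. The core genes were the helicases DDX39A and DDX39B (518 ± 14.6 against 103 ± 13.3 CPM). Of the regulators RBM4 was higher, and RALY and RNPS1, of the exon junction complex, were among the lower ones (RNPS1 184 ± 58.6 against 1254 ± 31.9 CPM). Between WT and IVF embryos SNRNP35, of the minor spliceosome, had no count in IVF libraries and was at least 158-fold higher in WT, SNRNP25 was higher too (435 ± 99.6 against 50.5 ± 8.43 CPM), and the helicase DHX15 was lower. In this comparison 8.11% of the core genes and 3.70% of the regulators passed, against 5.71% of all genes. Between XIST-KO and WT, RALY was also the one gene of both lists that passed (3.70% of the regulators, against 1.11% of all genes). An unadjusted p under 0.05 was found for 4 core genes and 6 regulators, counts for which the share of all genes is not given here.

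**Figure D5:**
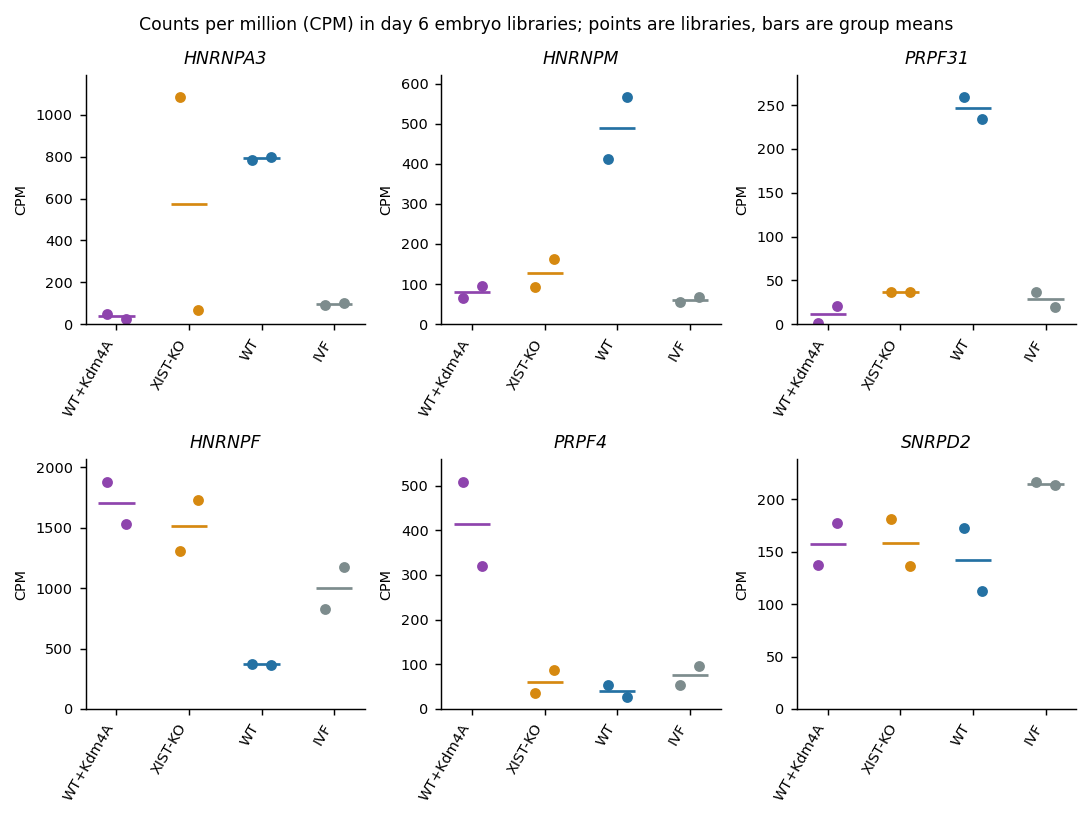
CPM of HNRNPA3, HNRNPM, PRPF31, HNRNPF, PRPF4 and SNRPD2 in the 8 day 6 embryo libraries, where each point is a library and each bar a group mean. HNRNPM and PRPF31 are highest in the 2 WT libraries and HNRNPF is lowest there (373 and 365 CPM), while SNRPD2 spans less than 2-fold over all 8 libraries.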

How the data were processed

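RNA was sequenced from 14 fetus and 8 embryo libraries. Reads were quantified by the authors in RSEM 1.2.4, and the build was Sscrofa11.1 (susScr11), per the submitters' processing notes; no source used here gives the read filters. Each deposited table lists 65927 RefSeq transcript records with the authors' expected count and their TPM, per the file headers. Accessions without their version linked 25305 records (38.4%) to gene symbols, and expected counts were summed per symbol and rounded; these records hold 66.0% to 69.0% of the counts of fetus and 79.5% to 85.0% of those of embryo libraries.

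Groups followed the titles. Fetuses and embryos were fitted separately, 1 coefficient per group, in edgeR 4.0.16 (R 4.3.3): filterByExpr, TMM, quasi-likelihood test, Benjamini-Hochberg adjustment over all tested genes (9911 in fetuses, 6958 in embryos) at 0.05. The fit was tested on simulated data. CPM values use TMM library sizes. Folds against a group at 0 use a floor of 3 counts over the group, which covers counting error only. The members and lists were chosen with earlier results of these data known. Named genes passed the test, averaged at least 1 on the log2 CPM scale and did not overlap between groups, taken from the greatest change down to 10 in a direction for abnormal against normal and 5 elsewhere; the 2 highest members per class, those all at 3 counts or fewer in a group and at 5 CPM or more in another, RNPC3 and up to 3 genes per direction of 2 further lists were added. Alternatives were RLE factors, total-count library sizes, no filter, a filter at 1 CPM in 2 libraries, DESeq2 1.42.0, limma 3.58.1 on log2(TPM + 1), only the compared groups, a replicate block and each library left out. RefSeq sequences were not used here. Results of 2 genes, 1 of them a member that stays in the counts, are not reported here.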

Additional observations from a re-analysis of the deposited data

Results flagged for a closer look

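The effect of abnormality differed between the 2 days for 3 members in a test of the difference itself, edgeR's quasi-likelihood test of the interaction. For HNRNPA3 the day 35 log2 fold change was higher than the day 30 one by 0.89, and its call was lost in 13 of 22 alternatives. For HNRNPC the difference was 0.75 and for SRSF6 0.95, and each of these calls was lost in 17 of 22 alternatives. The day 35 abnormal libraries in this test are the ones without EIF1AY counts, and whether that bears on the difference was not tested.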

How the results depend on the processing

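Calls rest on 2 or 3 libraries per group, and most counts of members that passed moved with 1 library or 1 setting. Of 1108 single-gene alternatives 822 kept the call and its direction, 286 lost the call and none reversed. The counts below stand without the share of all genes under the same setting. They show how far the calls depend on the setting, not how members compare with other genes. Counts over the 49 members (abnormal against normal at day 30, main 7) were 11 with DESeq2, 16 with limma on log2(TPM + 1), 3 with a replicate block and 25 with only the compared groups. At day 35 (main 13) they were 8 without a filter on low counts, 20 with DESeq2, 4 with a replicate block and 1 with only the compared groups, and for the interaction (main 3) 1 with RLE factors, 0 with total counts, 1 without a filter, 10 with DESeq2 and 0 with a replicate block or only the compared groups. For normal against NF they were 8 with a replicate block at day 30 (main 18), and 15 with total counts and 14 with a replicate block at day 35 (main 23). For day 35 against day 30 (main 13) they were 20 with DESeq2, 8 with a replicate block and 28 with only the compared groups. In embryos, WT against IVF (main 1) gave 6 without a filter, 13 with DESeq2, 5 with limma, 3 with a replicate block and 4 with only the compared groups, XIST-KO against WT (main 0) gave 2 without a filter and 6 with DESeq2, and WT+Kdm4A against WT (main 5) gave 10, 12 and 11 without a filter, with DESeq2 and with only the compared groups. Leaving out each library gave 1 to 21 at day 30, 4 to 18 at day 35, 0 to 23 for the interaction, 3 to 27 and 6 to 33 for normal against NF at days 30 and 35, 0 to 28 between days, 0 to 8 for WT against IVF, 0 to 2 for XIST-KO and 0 to 11 for WT+Kdm4A; a group left with 1 library was assumed to vary like the others. Apart from the fewer samples or genes in some fits, the cause was not tested. Same-numbered libraries of WT and XIST-KO deviated with a correlation of -0.310 and no same-numbered fetus pair exceeded 0.148, with several below 0.1. Differently numbered embryo libraries reached 0.31 (WT and XIST-KO), 0.258 (WT+Kdm4A and XIST-KO) and 0.255 (WT+Kdm4A and IVF). With 2 or 3 libraries per group these values cannot show whether samples were paired. The block is thus a fit over shared numbers only. A crossed pairing of XIST-KO and WT, chosen after the data were seen, gave 0 calls.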
